A study of Mus musculus with 18 samples.

Results

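The *Egr* and *Nr4a* families, with the NAB co-repressors of EGR proteins, were followed through the LPS activation of splenic B cells. The 8 genes described here, *Egr1*, *Egr2*, *Egr3*, *Nab1*, *Nab2*, *Nr4a1*, *Nr4a2* and *Nr4a3*, were chosen by name from a table of 16545 genes, and all 8 were measured. The table covers 18 RNA-seq libraries, 3 for each genotype at each of D0, D1 and D2, the days of LPS stimulation. LPS, a bacterial cell wall component, activates B cells through TLR4. Controls (CON) were littermate Cre/+ *Zbtb24* +/+ mice, and Zbtb24 B-CKO mice carried the same Cre with both *Zbtb24* alleles floxed. The Cre is active in B cells, so that both genotypes hold it and the B-CKO mice alone lose exon 2 of *Zbtb24* there. All were on a C57BL/6 background, 1 mouse stood behind each replicate, and the age and sex of the mice behind these libraries are not given in the sources used here. The values are FPKM, that is fragments scaled for transcript length and for the mapped fragments of the library, and the number of fragments behind a value is unknown.

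EGR1, EGR2 and EGR3 are zinc finger transcription factors whose genes are switched on within minutes of antigen receptor signaling, chiefly through the ERK kinases and the serum response factor (SRF). NAB1 and NAB2 bind EGR proteins and hold back the transcription they drive, and *Nab2* is itself a known EGR target. NR4A1 (Nur77), NR4A2 (Nurr1) and NR4A3 (Nor1) are orphan nuclear receptors that need no ligand, so the amount made largely sets their activity. In lymphocytes their genes respond to calcium signals through calcineurin, NFAT and MEF2 as well as to cAMP through CREB, and *Nr4a1* is a widely used readout of antigen receptor stimulation.

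The promoters of the families carry the recognition letters of these routes in different numbers. In RefSeq windows of GRCm38.p6 that run from 250 bases before to 50 bases after a transcription start, 6 of the 8 genes had an entry, *Egr2* with 5 windows and each of *Nab1*, *Nab2*, *Nr4a1*, *Nr4a2* and *Nr4a3* with 1. *Egr1* and *Egr3* were not matched. The stretches before the start are shown for the NR4A genes and for 1 start of *Egr2*, the one nearest to a GENCODE exon start among those with both motifs, because these hold several copies of TGACG, the core of the cAMP response element (CRE), or the CArG box that SRF binds. Capitals mark CRE cores on either strand (TGACG or its complement CGTCA) and the CArG box, and bases inside a GENCODE exon of the gene were left out.
*Nr4a1*, chr15:101266596-101266845, plus strand: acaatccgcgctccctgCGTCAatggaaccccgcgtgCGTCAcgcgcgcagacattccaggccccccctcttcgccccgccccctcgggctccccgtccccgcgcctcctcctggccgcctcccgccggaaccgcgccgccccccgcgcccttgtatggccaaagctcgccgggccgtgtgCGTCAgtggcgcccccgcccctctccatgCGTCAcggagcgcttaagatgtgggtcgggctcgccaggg
*Nr4a2*, chr2:57124004-57124253, minus strand: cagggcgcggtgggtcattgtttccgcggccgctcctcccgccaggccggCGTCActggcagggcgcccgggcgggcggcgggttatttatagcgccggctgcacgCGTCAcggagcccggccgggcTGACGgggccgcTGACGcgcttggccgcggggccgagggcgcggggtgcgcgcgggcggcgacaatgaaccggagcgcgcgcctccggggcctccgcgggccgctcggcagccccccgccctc
*Nr4a3*, chr4:48045055-48045152, plus strand: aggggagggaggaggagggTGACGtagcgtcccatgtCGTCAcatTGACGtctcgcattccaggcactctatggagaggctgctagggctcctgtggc
*Egr2*, chr10:67537619-67537868, plus strand: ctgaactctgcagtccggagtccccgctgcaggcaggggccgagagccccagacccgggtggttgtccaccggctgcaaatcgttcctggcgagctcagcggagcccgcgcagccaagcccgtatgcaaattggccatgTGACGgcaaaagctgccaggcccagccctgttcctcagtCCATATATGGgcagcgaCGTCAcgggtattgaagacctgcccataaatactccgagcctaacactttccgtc

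Each of the 3 NR4A genes held 4 CRE cores within the 250 bases before its start, the fourth of *Nr4a3* lying beyond the stretch shown, whereas 0.137% of all 32851 windows held 4 or more there and 17.8% held at least 1. *Egr2* held 2, *Nab1* held 1, and *Nab2* held none in these letters. None of the 6 genes held the full CRE (TGACGTCA, in 1.79% of all windows of 300 bases) or the NR4A monomer site (AAAGGTCA, 1.51%). The CArG box was found in *Egr2* alone among these genes, in 4 of its 5 partly overlapping windows, against 1.63% of all windows. An EGR site (GCGNGGGCG, 5.55% of all windows) was matched 3 times in the window of *Nab1* and once each in those of *Nr4a1* and *Nr4a2*. Both strands were searched for every motif, the CRE core is part of the full CRE, and a match describes the letters only.

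Before LPS the 8 genes differed widely in level. *Nr4a1* (chr15:101253902-101274795) stood at 917 ± 300.4 FPKM in CON and 984 ± 439 FPKM in B-CKO libraries (SD, n = 3 each), place 88 and place 86 from the top among the 16545 genes. *Egr1*, on chromosome 18, followed with 212 ± 179 FPKM and 156 ± 74.8 FPKM, and *Egr3* (chr14:70077317-70082613) with 106 ± 18.7 FPKM and 86.3 ± 18.6 FPKM. *Nr4a3* (chr4:48045078-48086447) averaged 21.1 FPKM in CON and 17.9 FPKM in B-CKO libraries, *Nab2* (chr10:127660918-127666703) 19.9 FPKM and 18.3 FPKM, and *Nab1* (chr1:52455849-52500712) 17.2 FPKM and 18.9 FPKM. *Egr2* (chr10:67534469-67542188) and *Nr4a2* (chr2:57106830-57124003) were lowest among the 8, with 13.3 FPKM and 13.2 FPKM in control libraries. In controls the last 5 genes in this order overlapped in their libraries, and so did *Egr1* with *Egr3*, whereas the lowest *Nr4a1* library of either genotype lay above every library of the other 7 genes.

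**Figure D1:**
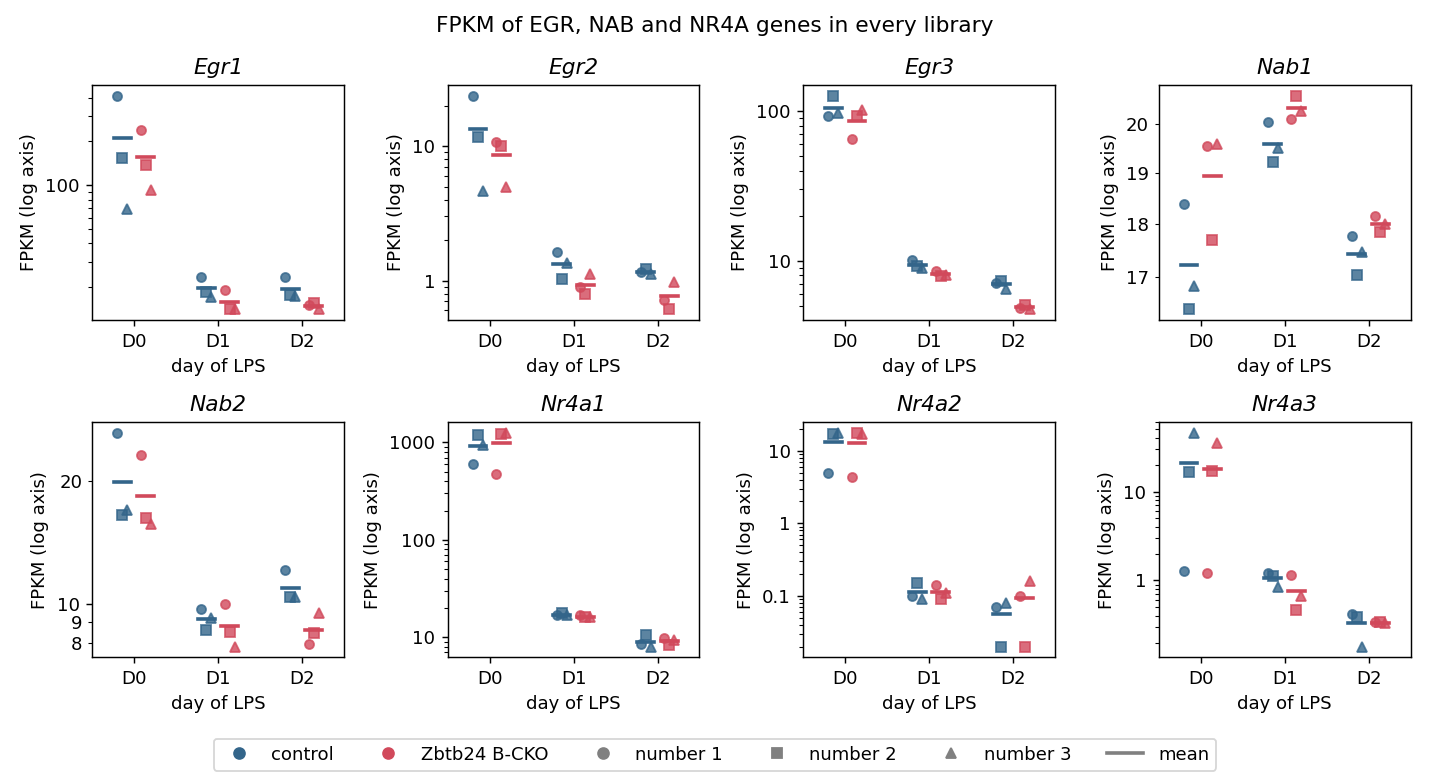
FPKM (log axis, with its own range for each gene) of the 8 genes in the 18 libraries by day of LPS, with control in blue, Zbtb24 B-CKO in red, a symbol for each replicate number and a bar at the mean of 3 libraries. All NR4A and EGR genes and *Nab2* had lower means at D1 than at D0, while *Nab1* stayed between 16.43 and 20.62 FPKM in all libraries.

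The D0 libraries differed widely within each genotype, and the difference followed the replicate number in the sample labels rather than the genotype. *Nr4a3* showed it most, with 1.28, 16.51 and 45.52 FPKM in control libraries 1, 2 and 3 and 1.22, 17.11 and 35.30 FPKM in B-CKO libraries 1, 2 and 3. Between the highest and the lowest library the gene thus differed 35.6-fold in controls and 28.9-fold in B-CKO, but same-numbered libraries of the 2 genotypes differed by ratios (B-CKO over control) of 0.953, 1.04 and 0.775 only. Both number 1 libraries were low, and their *Nr4a3* values lay near those of D1.

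*Nr4a2* was likewise low in both number 1 libraries, with 4.88 FPKM in CON and 4.33 FPKM in B-CKO, against 16.84 to 17.53 FPKM in the other 4 libraries. *Nr4a1* was measured at 604.09, 1203.11 and 943.66 FPKM in control libraries 1, 2 and 3 and at 477.36, 1222.55 and 1250.95 FPKM in the B-CKO ones. All 3 NR4A genes were therefore lowest in the number 1 library of both genotypes.

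*Egr1* and *Egr2* ran the other way. *Egr1* had 412.16, 153.50 and 69.40 FPKM in control libraries 1, 2 and 3, and 238.97, 136.88 and 93.24 FPKM in B-CKO libraries 1, 2 and 3. *Egr2* had 23.69, 11.58 and 4.62 FPKM in the control and 10.78, 9.99 and 4.99 FPKM in the B-CKO libraries. Both genes were highest in number 1 and lowest in number 3 of either genotype. *Nab2* was also highest in number 1, with 26.16 FPKM in CON and 23.05 FPKM in B-CKO against 15.68 to 16.93 FPKM in the other 4 libraries.

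*Egr3* did not move with its 2 family members. It was lowest in the number 1 libraries (92.19 FPKM in control, 65.41 FPKM in B-CKO), and its other values lay between 92.35 and 127.01 FPKM. *Nab1* differed little, between 16.43 and 19.59 FPKM. In all, 3 of the 8 genes were highest and 4 were lowest in the number 1 libraries of both genotypes, and among 9979 genes that averaged 1 FPKM or more at D0 these shares were 42.8% and 14.9%. The order of the 3 numbers was the same in both genotypes for 3 of the 8 genes (*Egr1*, *Egr2* and *Nr4a3*) and for 46.8% of the 9979 genes.

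**Figure D2:**
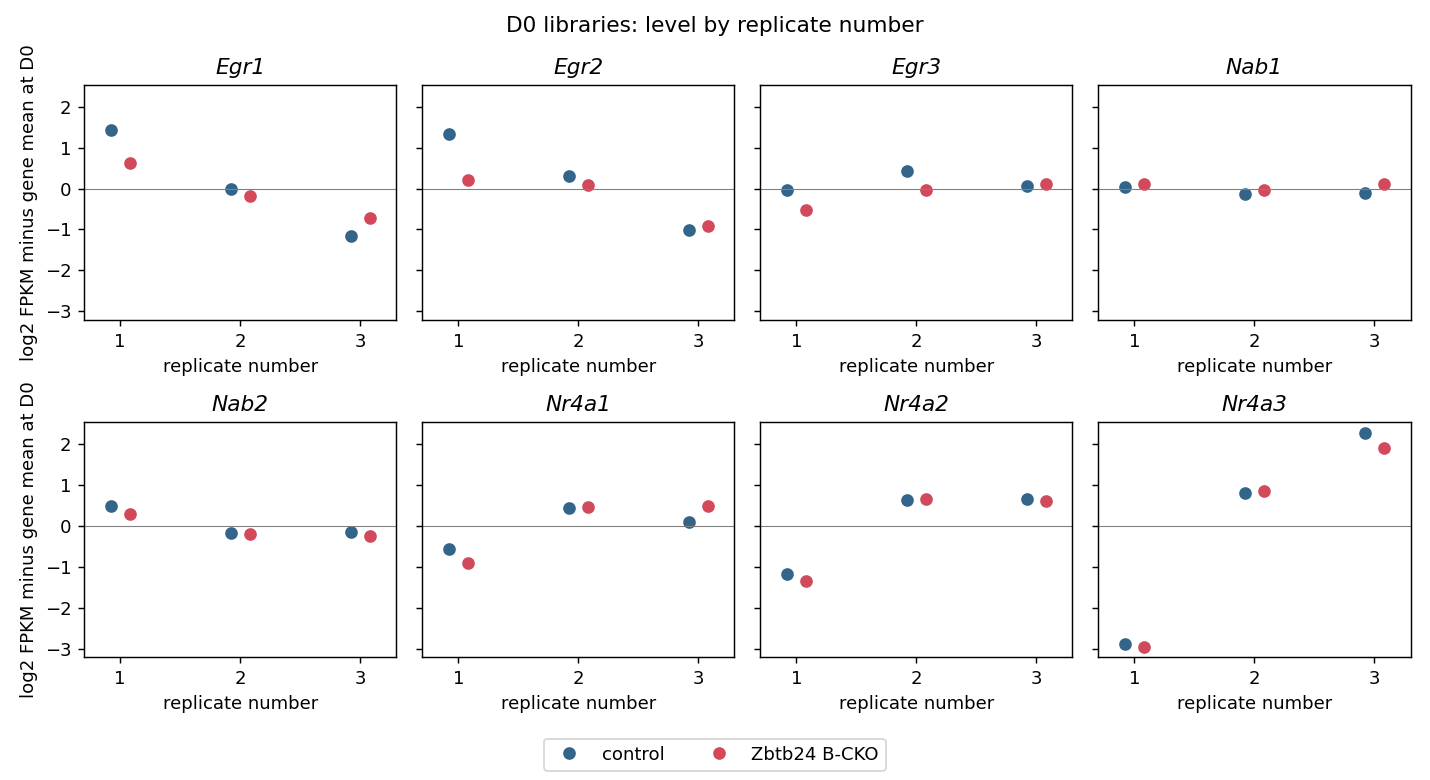
log2 FPKM of each gene in the 6 D0 libraries, minus the gene's mean over them, by replicate number (control blue, B-CKO red). *Nr4a1*, *Nr4a2* and *Nr4a3* are lowest and *Egr1*, *Egr2* and *Nab2* highest in number 1 of both genotypes.

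The spread between the D0 libraries of one genotype was large for most of these genes. On the log2(FPKM + 1) scale the SD within genotypes was 2.16 for *Nr4a3*, 1.02 for *Egr1*, 0.98 for *Nr4a2*, 0.85 for *Egr2* and 0.66 for *Nr4a1*, against a median of 0.17 over the 9979 genes. It exceeded that of 98.2% to 100% of those genes in each of the 5. *Nab2* (0.33) and *Egr3* (0.29) exceeded 85.9% and 80.5%, and *Nab1* (0.080) exceeded 11.1%. At D1 the SD of *Nr4a1* had fallen to 0.045 and that of *Egr1* to 0.24, with a median over genes of 0.060. Among 9711 genes *Nr4a1* then exceeded 30.1%, whereas *Egr1* still exceeded 98.9% and *Egr2* 96.1%.

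Over the 6 D0 libraries, *Nr4a2* correlated with *Nr4a1* (Pearson r 0.956) and *Nr4a3* (0.957), and *Egr1* with *Egr2* (0.952) and *Nab2* (0.875). Across the families the values were negative, at -0.944 for *Egr1* with *Nr4a3* and -0.963 for *Nab2* with *Nr4a2*, and *Egr3* sided with *Nr4a1* (0.782) rather than with *Egr1* (-0.355). These values describe 6 libraries that share replicate numbers in pairs. The genes most like *Egr1* over these libraries, among the 9979, were *Ttc17*, *Ing1*, *Wdr73*, *Arid3a* and *Nudt2* (r 0.993 to 0.997), those most like *Nr4a1* were *Wsb2*, *Pnrc1*, *Cebpb*, *Gm6377* and *Dnajb9* (0.984 to 0.993), and those most like *Nab2* were *Irf2bpl*, *Tmed8*, *Pgrmc2*, *Zfp672* and *Eloa* (0.995 to 0.998). *Nr4a3*, examined after its values were seen, was most like *Crem*, *Vps37b*, *Odc1*, *Kdm6b* and *1700017B05Rik* (0.998 to 0.999). *Crem* encodes a factor that binds CREs.

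Other readouts of the D0 libraries also differed by number. Counts of genes are to be read against 42.8% highest and 14.9% lowest in number 1 of both genotypes among the 9979 genes. Of the 21 other immediate early genes, 8 were lowest in number 1 of both genotypes (*Fosb*, *Jund*, *Atf3*, *Klf2*, *Klf4*, *Klf6*, *Sik1* and *Maff*) and 4 were highest there (*Ier2*, *Ier5*, *Zfp36* and *Dusp2*). Of 5 NK cell markers 1, *Prf1*, was lowest in number 1 of both genotypes, and it carried most of their sum, which was 7.17 FPKM (control) and 5.36 FPKM (B-CKO) in number 1 and 13.72 and 15.90 FPKM in number 3. Of 9 T cell markers 5 were highest and 1 was lowest in number 1, and summed they were highest in number 1 (34.23 and 31.50 FPKM against 24.11 to 30.35 FPKM). Summed myeloid markers (9 genes) ranged from 9.10 to 15.28 FPKM. The summed erythroid and platelet markers (6 genes, nearly all globin) were highest in number 3 of both genotypes, where *Nr4a3* was highest and *Egr1* and *Egr2* were lowest, at 10.98, 11.87 and 30.16 FPKM in control and 24.99, 8.96 and 52.77 FPKM in B-CKO libraries 1, 2 and 3. Of 6 B cell markers (*Cd79a*, *Cd79b*, *Ms4a1*, *Pax5*, *Cd22* and *Blnk*), 5 were highest in number 1 of both genotypes, and their sum was 4663.75 FPKM (control) and 4796.40 FPKM (B-CKO) there against 3551.63 to 4254.57 FPKM in the other 4 libraries. The part of these in the values of the EGR and NR4A genes was not tested. Each replicate is 1 mouse, and the labels and the methods do not say what links same-numbered libraries of the 2 genotypes.

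After 1 day of LPS, the 3 EGR genes, *Nr4a1*, *Nr4a2* and *Nab2* were below their D0 level in both genotypes, whereas *Nr4a3* did not pass the test in either. In control libraries *Nr4a1* fell from a mean of 917 to 17.1 FPKM (53.5-fold), *Egr3* from 106 to 9.37 FPKM (11.3-fold), *Egr1* from 212 to 19.7 FPKM (10.7-fold) and *Egr2* from 13.3 to 1.34 FPKM (9.95-fold). *Nr4a2* fell from 13.2 to 0.11 FPKM and *Nab2*, by much less, from 19.9 to 9.18 FPKM (2.16-fold). These 6 of the 8 genes passed the limma test (adjusted p under 0.05 over 15531 genes), all lower, where 57.4% of all genes tested were called, 30.7% lower and 26.7% higher. In 7 of the 8 genes all D1 libraries lay below all D0 libraries, against 34.9% of all genes. In bulk libraries, fewer cells of a type and less RNA per cell cannot be told apart. No library came from cells cultured without LPS. In all changes between days, LPS, time in culture and the handling of the cells before D0 therefore cannot be told apart.

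The size of each change is given as log2 fold change of FPKM + 1 with its SE and limma's adjusted p. *Nr4a1* changed by -5.61 ± 0.24 (adjusted p = 1.08e-05) and *Egr3* by -3.35 ± 0.13 (8.65e-06). The D1 values of *Nr4a1* in controls, 16.83, 17.69 and 16.89 FPKM, lay far below the lowest D0 library. *Egr1* changed by -3.01 ± 0.61 (adjusted p = 0.00575), with 23.60, 18.54 and 17.08 FPKM at D1, and *Egr2* by -2.37 ± 0.51 (0.00764), with 1.64, 1.02 and 1.35 FPKM at D1. The errors of these 2 genes were wider, beside their D0 spread. *Nr4a2* changed by -3.49 ± 0.45 (0.000768) to 0.10, 0.15 and 0.09 FPKM, values with 1 or 2 digits, and by -5.76 with a pseudocount of 0.1. *Nab2* changed by -1.01 ± 0.18 (0.00347) to 9.71, 8.61 and 9.21 FPKM.

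*Nr4a3* and *Nab1* did not pass. *Nr4a3* had 1.2, 1.11 and 0.85 FPKM in the control libraries at D1, all below the D0 libraries, of which number 1 held 1.28 FPKM. Its log2 fold change was -2.59 ± 1.04 (adjusted p = 0.0752). Without the control D0 library of number 1 it was -3.80 (adjusted p = 0.00098), without that of number 3 it was -1.62 (0.167), and it also passed in 4 of the other settings tried. *Nab1* had 20.04, 19.22 and 19.51 FPKM at D1, above its 3 D0 values of 16.43 to 18.37 FPKM, with a log2 fold change of 0.18 ± 0.067 (adjusted p = 0.0617). It passed after median ratio scaling (0.0145), in a single fit of all 18 libraries (0.00533) and without the control D0 library of number 1 (0.014).

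The B-CKO libraries gave the same calls, 6 of the 8 genes lower, where 59.8% of all genes were called and 32.3% were called lower. The D1 libraries of 7 of the 8 genes lay below all D0 libraries, against 35.7% of all genes. *Nr4a1* was 60.2-fold lower at D1 than at D0 (log2 fold change -5.70 ± 0.37, adjusted p = 3.07e-05), with 17.07, 15.99 and 15.98 FPKM at D1. *Egr3* was 10.6-fold lower (-3.23 ± 0.16, adjusted p = 1.11e-05) and *Egr1* 9.82-fold lower (-3.12 ± 0.33, adjusted p = 0.00028). *Nr4a3* reached -2.71 ± 0.98 (adjusted p = 0.052), with -3.88 (0.000345) without the B-CKO D0 library of number 1 and -1.87 (0.136) without that of number 3. It passed in 6 of the other settings tried (adjusted p = 0.0134 to 0.0374) and missed after median ratio scaling (0.0544) and with the block (0.0625). *Nr4a3* also missed without the B-CKO D0 library of number 2 (0.155) and on leaving out any D1 library (0.102 to 0.134). The differences between the genotypes in the change from D0 to D1, tested as interaction terms, lay between -0.12 and 0.12 in log2 units for the 8 genes, and 0 of 8 passed, with 0 at an unadjusted p under 0.05, where 0% of all genes passed and 2.89% had such a p. The intervals of those terms were wide, from -3.63 to 3.39 for *Nr4a3* and from -0.37 to 0.61 for *Egr3*.

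Genes around the 2 families are given by list, and the called shares of each are to be read against 30.7% lower and 26.7% higher among all genes. Of 21 other immediate early genes, 20 fell in controls from D0 to D1 and 1, *Ier3*, rose, with a median log2 fold change of -3.39 against -0.02 over all genes tested. *Fosb* (-8.23 ± 0.39, adjusted p = 1.41e-05) and *Fos* (-7.55 ± 0.17, 4.97e-06), which encode AP-1 subunits, and *Klf4* (-6.47 ± 0.36, 2.56e-05), which encodes a zinc finger factor linked to quiescence, changed most, and *Fos* went from 344.08 to 443.87 FPKM at D0 to 0.78 to 1.63 FPKM at D1. Of 12 genes of the calcineurin, NFAT and MEF2 route, 9 fell and none rose (median -0.80), led by *Mef2d* (-1.72 ± 0.23, adjusted p = 0.000895), *Nfatc1* (-1.57 ± 0.13, 0.000125) and *Hdac7* (-1.43 ± 0.061, 1.09e-05). *Hdac7* encodes a deacetylase that binds MEF2 factors. Of 15 genes of the ERK and SRF route, 8 fell and 4 rose (median -0.28), the latter at the share of all genes. *Elk4*, a partner of SRF (-1.67 ± 0.19, adjusted p = 0.000429), and the kinase gene *Rps6ka5* (-1.49 ± 0.13, 0.000163) fell, whereas *Rps6ka1*, which encodes an ERK-activated kinase, rose (0.80 ± 0.14, 0.00371). Of 6 partner genes, 4 fell and 2 rose. *Chd3* (-0.90 ± 0.16, adjusted p = 0.00318), a subunit of the NuRD complex that NAB proteins bind, *Egr4* (-0.69 ± 0.093, 0.000962), the remaining EGR gene at 0.56 to 0.94 FPKM in control D0 libraries, and *Rxrb* (-0.44 ± 0.11, 0.0161), which encodes an RXR receptor that pairs with NR4A proteins, were lower at D1. Markers of B cells, T cells and NK cells fell as well in controls, 3 of 6, 9 of 9 and 4 of 5. The B cell markers summed to 3551.63 to 4663.75 FPKM at D0 and 2177.79 to 2337.14 FPKM at D1, and *Cd79a* alone went from 1790.19 to 2233.78 FPKM down to 713.38 to 745.56 FPKM. The T cell markers went from 24.99 to 34.23 FPKM down to 12.49 to 15.12 FPKM and the NK cell markers from 7.17 to 13.72 FPKM down to 0.49 to 0.58 FPKM. Of the myeloid markers 3 of 9 fell and 1 rose. Of 5 erythroid and platelet genes tested 3 fell and 1 rose. *Hbb-bs* went from 3.06 to 12.49 FPKM down to 0 to 2.67 FPKM, and *Hbb-bt* from 1.99 to 3.37 FPKM up to 6.14 to 8.60 FPKM. The part of all these markers in the changes was not tested.

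**Figure D3:**
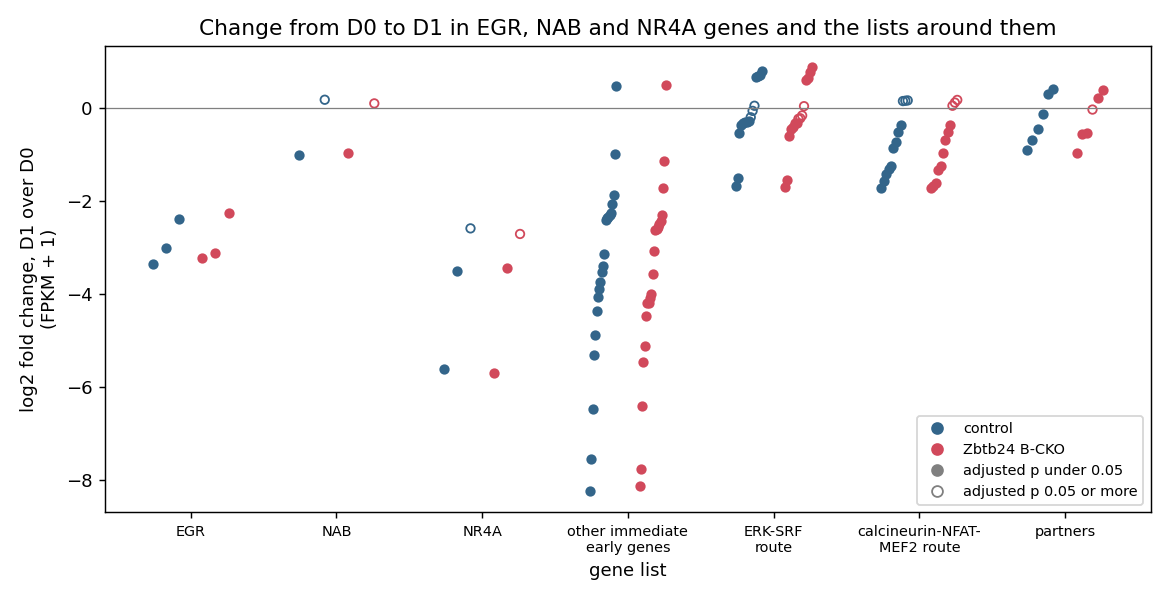
log2 fold change (FPKM + 1) from D0 to D1 for each gene of 7 lists, with control libraries in blue, B-CKO libraries in red and open circles where the adjusted p was 0.05 or more. The EGR genes lie between -3.35 and -2.25, and 20 of 21 other immediate early genes are below 0 in either genotype.

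From D1 to D2 the changes were smaller and split the families. In controls *Nr4a1* fell further, from 16.83 to 17.69 FPKM down to 8.47, 10.59 and 8 FPKM (log2 fold change -0.86 ± 0.095, adjusted p = 0.000486), and *Nr4a3* from 0.85 to 1.2 FPKM down to 0.42, 0.39 and 0.18 FPKM (-0.63 ± 0.093, 0.00177). *Egr3* fell from 8.88 to 10.08 FPKM down to 7.15, 7.28 and 6.45 FPKM (-0.38 ± 0.069, 0.00412). *Nab1* fell slightly, from 19.22 to 20.04 FPKM down to 17.76, 17.04 and 17.46 FPKM (-0.16 ± 0.036, 0.00992). For these 4 genes and *Nr4a2* the D2 libraries lay below all D1 libraries, 5 of 8 against 28.8% of all genes.

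*Nab2* was the only one of the 8 genes called higher in controls at D2, at 12.05, 10.38 and 10.39 FPKM (log2 fold change 0.23 ± 0.073, adjusted p = 0.0412). It lost this call when any of the 6 libraries was left out (adjusted p = 0.0524 to 0.128), after rescaling to TPM (0.0701) and in the single fit of all 18 libraries (0.335), in which *Nr4a3* lost its call too (0.682). *Egr1* had 23.51, 17.87 and 17.56 FPKM at D2, which overlapped its D1 libraries, and a log2 fold change of -0.01 (95% interval -0.36 to 0.35). *Egr2* differed by -0.11 and *Nr4a2*, at or below 0.08 FPKM, by -0.08, neither past the test. The 5 calls of 8, 4 lower and 1 higher, compare with 44.9% of all genes, 24.8% lower and 20.1% higher.

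In B-CKO libraries 4 of the 8 genes were called lower at D2, where 45.7% of all genes were called and 24% were called lower. The D2 libraries of these 4 lay below all D1 libraries, against 28.2% of all genes. *Egr3* fell from 8.57, 7.88 and 8 FPKM to 4.82, 5.08 and 4.73 FPKM (log2 fold change -0.64 ± 0.062, adjusted p = 0.000239), *Nr4a1* from 15.98 to 17.07 FPKM down to 9.88, 8.34 and 9.36 FPKM (-0.77 ± 0.068, 0.000155), *Nab1* by -0.17 ± 0.035 (0.00688) and *Nr4a3* by -0.38 ± 0.13 (0.0451). The call of *Nr4a3* was lost in a fit blocked by replicate number (0.0552), with weights by day (0.0858) and in the single fit (0.805), and on leaving out any D2 library or the number 3 library of D1. *Nr4a1* missed the threshold in the single fit (0.0563). *Nab2*, at 7.96, 8.49 and 9.46 FPKM, differed by -0.02 from D1.

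At D2 the order of the 8 genes had changed from that of D0. *Egr1* (19.7 FPKM in controls) and *Nab1* (17.4 FPKM) were highest and overlapped, *Nab2* (10.9 FPKM), *Nr4a1* (9.02 FPKM) and *Egr3* (6.96 FPKM) followed, and *Egr2* (1.16 FPKM), *Nr4a3* (0.33 FPKM) and *Nr4a2* (0.057 FPKM) were lowest. Of neighbours in this order, *Nab2* and *Nr4a1* overlapped, whereas the 3 lowest genes did not overlap each other in controls. *Nr4a1* held 93.7% to 99% of the summed NR4A FPKM at D0, 92.8% to 96.6% at D1 and 94.5% to 96.9% at D2, although the sum went from 483 to 1303 FPKM at D0 to 8.26 to 11 FPKM at D2. Within the EGR genes the share of *Egr1* varied from 40.4% to 78.1% at D0 with that of *Egr3* from 17.5% to 56.9%, and settled at 60.8% to 67.1% at D1 and 67.8% to 73.9% at D2. *Egr2* held under 5% of the sum in all libraries, from 2.5% to 4.94%.

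**Figure D4:**
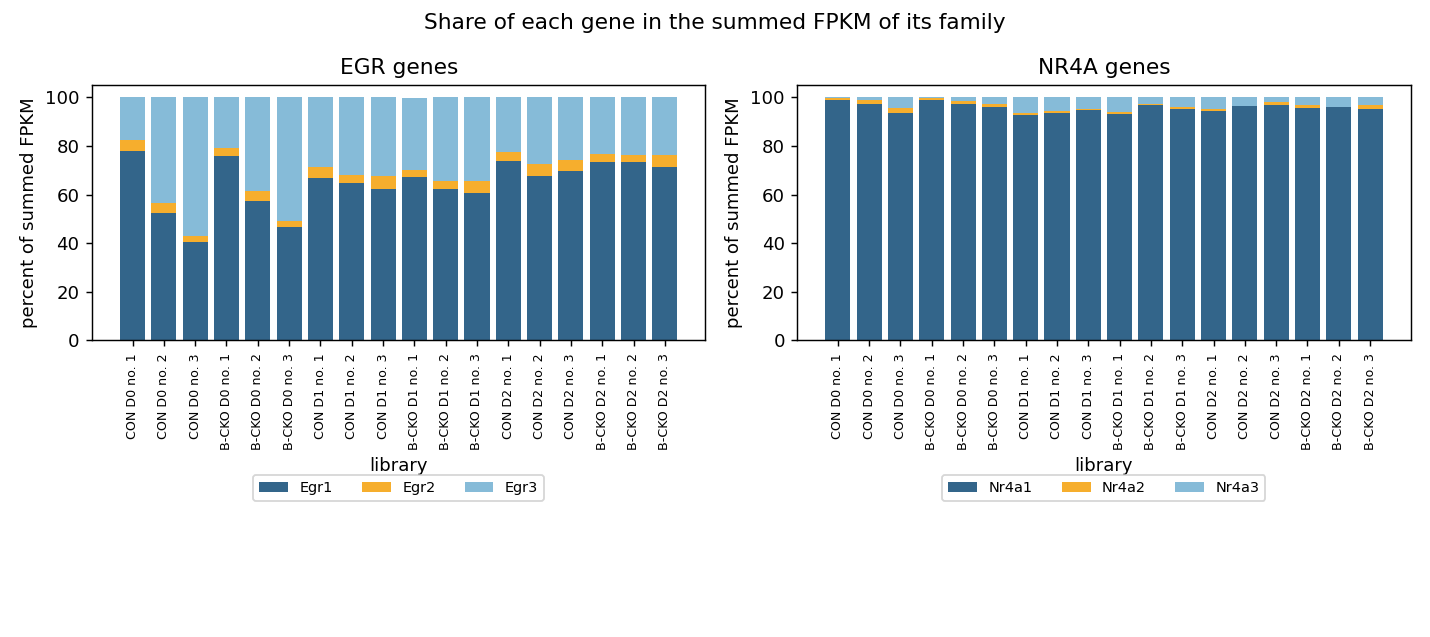
Share (percent) of each gene in the summed FPKM of *Egr1*, *Egr2* and *Egr3* (left) and of *Nr4a1*, *Nr4a2* and *Nr4a3* (right) in each of the 18 libraries. *Nr4a1* holds at least 92.8% of its family in all libraries, and the share of *Egr1* is widest apart at D0, from 40.4% to 78.1%.

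Over all 18 libraries, among 9997 genes that averaged 1 FPKM or more, the genes most like *Egr1* were *Ier2*, *Lrch4*, *Cyhr1*, *Egr2* and *Psd4* (Pearson r of log2(FPKM + 1) 0.988 to 0.989), those most like *Nr4a1* were *Med13l*, *Ccnl1*, *Chmp1b*, *Kansl1* and *Epc2* (0.994 to 0.995), and those most like *Nab2* were *Pigv*, *Klf3*, *Egr1*, *Btk* and *Ier2* (0.964 to 0.969). Of the genes, 10.4% had an r over 0.95 with *Nr4a1*, 3.56% with *Egr1* and 0.5% with *Nab2*, over libraries that share the step from D0 to D1.

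The comparison of genotypes asks whether loss of *Zbtb24* alters these genes before and during activation. *Zbtb24* itself (chr10:41450358-41465582) averaged 45.4 FPKM in CON and 12.5 FPKM in B-CKO libraries at D0, 17.6 and 10.9 FPKM at D1, and 15.2 and 10.4 FPKM at D2, with all 3 B-CKO libraries below all 3 controls on each day. FPKM is taken over the whole gene, so reads outside the floxed exon count as well. Its log2 fold change was -1.78 ± 0.16 at D0, -0.64 ± 0.075 at D1 and -0.50 ± 0.10 at D2, and limma's adjusted p was 0.12, 0.0586 and 0.267.

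None of the 8 genes passed the genotype test on any day (0 of 8 at an adjusted p under 0.05 by limma), where 0% of all genes passed at D0, 0.0993% at D1 and 0.046% at D2. At an unadjusted p under 0.05 there were 0, 2 and 4 of the 8 genes, where 2%, 16.3% and 7.71% of all genes passed. At D0 all 8 overlapped between the genotypes, where 1.94% of all genes lay wholly below and 1.92% wholly above the controls, and the intervals were wide: the log2 fold change was -0.18 (95% interval -1.79 to 1.44) for *Egr1*, 0.03 (-1.03 to 1.09) for *Nr4a1* and -0.12 (-3.51 to 3.28) for *Nr4a3*. *Nab1*, the steadiest of the 8, gave 0.13 (-0.09 to 0.35). These intervals are from the fit without pairing. The numbers paired the D0 libraries, and with the number as a block the SE fell from 1.41 to 0.10 for *Nr4a3*, from 0.65 to 0.065 for *Nr4a2*, from 0.67 to 0.24 for *Egr1* and from 0.44 to 0.16 for *Nr4a1*, with the same fold changes. For *Nab1* the SE fell from 0.089 to 0.053, and for *Nab2*, with a log2 fold change of -0.10, from 0.22 to 0.055. Ratios of same-numbered libraries (B-CKO over control) were 1.06, 1.08 and 1.16 for *Nab1* and 0.881, 0.985 and 0.926 for *Nab2*. Of the 8 genes 0 passed in the blocked fit as well, with limma's adjusted p from 0.867 to 0.989.

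At D1 *Egr3* was lower in the 3 B-CKO libraries (8.57, 7.88 and 8 FPKM) than in the 3 controls (10.08, 9.16 and 8.88 FPKM), with a log2 fold change of -0.18 ± 0.059 (adjusted p = 0.206). *Nab1* was higher in all 3 (20.12, 20.62 and 20.29 FPKM against 20.04, 19.22 and 19.51 FPKM), with 0.05 ± 0.029 (0.439). Among all genes, 11.7% had B-CKO libraries wholly below and 8.43% wholly above the controls at D1. *Egr1* differed by -0.30 (95% interval -0.66 to 0.07) and *Egr2* by -0.27 (-0.53 to -0.01), with overlapping libraries. The T cell markers summed to 9.89 to 11.34 FPKM in B-CKO against 12.49 to 15.12 FPKM in control libraries at D1, of which *Lck* made up 8.24 to 9.31 FPKM and 11.22 to 13.33 FPKM. The log2 fold changes of *Cd3d*, *Cd3e*, *Cd3g*, *Cd4*, *Cd8a* and *Cd8b1* lay between 0.04 and 0.26, none past the test, and the median of the list was 0.04. The 6 B cell markers summed to 2040.89 to 2097.36 FPKM against 2177.79 to 2337.14 FPKM, and their part was not tested. With the replicate block and genes of at least 1 FPKM only, an alternative added after the data were seen, *Egr1* was called lower (adjusted p = 0.0127).

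At D2 all 3 EGR genes and *Nab2* had the 3 B-CKO libraries below the 3 controls, 4 of the 8 genes, and *Nab1* had them above, where 6.24% of all genes lay wholly below and 4.89% wholly above. *Egr3* showed it most clearly, with 4.82, 5.08 and 4.73 FPKM in B-CKO and 7.15, 7.28 and 6.45 FPKM in controls (log2 fold change -0.44 ± 0.073, limma's adjusted p = 0.169). *Egr1* was measured at 15.16, 15.60 and 14.31 FPKM against 23.51, 17.87 and 17.56 FPKM (-0.35 ± 0.11, adjusted p = 0.467). *Egr2* was measured at 0.72, 0.61 and 0.98 FPKM against 1.15, 1.21 and 1.11 FPKM (-0.29 ± 0.082, adjusted p = 0.415).

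*Nab2*, the co-repressor gene, was measured at 7.96, 8.49 and 9.46 FPKM in B-CKO against 12.05, 10.38 and 10.39 FPKM in control libraries at D2 (log2 fold change -0.31 ± 0.086, adjusted p = 0.411). *Egr3* passed when only genes that averaged 1 FPKM or more were tested (adjusted p = 0.0435), and also with the block added (0.0223). The NR4A genes overlapped, with log2 fold changes from 0.01 to 0.05 and 95% intervals of -0.23 to 0.29 for *Nr4a1*, -0.07 to 0.16 for *Nr4a2* and -0.15 to 0.18 for *Nr4a3*. The sums of the T cell and myeloid marker lists differed between the same libraries, although no gene of either list passed the test. The 9 T cell markers summed to 9.16 to 10.25 FPKM in B-CKO against 13.01 to 13.47 FPKM in control libraries at D2, of which *Lck* made up 8.11 to 9.51 FPKM and 11.73 to 12.21 FPKM, while *Cd3d*, *Cd3e* and *Cd3g*, which encode the CD3 chains of T cells, were at 0 to 0.22 FPKM. The 9 myeloid markers summed to 8.32 to 9.97 FPKM against 11.01 to 13.69 FPKM, with *Itgam* at 2.99 to 4.14 FPKM against 4.35 to 6.03 FPKM and *Cd68* at 4.54 to 5.01 FPKM against 5.13 to 6.61 FPKM, and *S100a8* and *S100a9* at 0 in all D2 libraries. *Lyz2* was at 0 to 0.22 FPKM and *Csf1r* at 0 to 0.06 FPKM in the D2 libraries. Of the markers tested, 2 of 9 T cell and 2 of 7 myeloid ones lay wholly below the controls, against 6.24% of all genes. Of the erythroid and platelet genes, *Hbb-bt* was at 11.55 to 16.03 FPKM in B-CKO against 8.66 to 9.72 FPKM in control libraries, whereas *Hbb-bs*, *Hba-a1* and *Alas2* were at 0 to 0.14 FPKM in B-CKO and 0 to 0.67 FPKM in control libraries with overlap, and *Pf4* and *Ppbp* were at 0. None of the 6 B cell markers lay wholly below or above the controls at D2. The part of these markers in the differences of the EGR genes and *Nab2* was not tested.

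**Figure D5:**
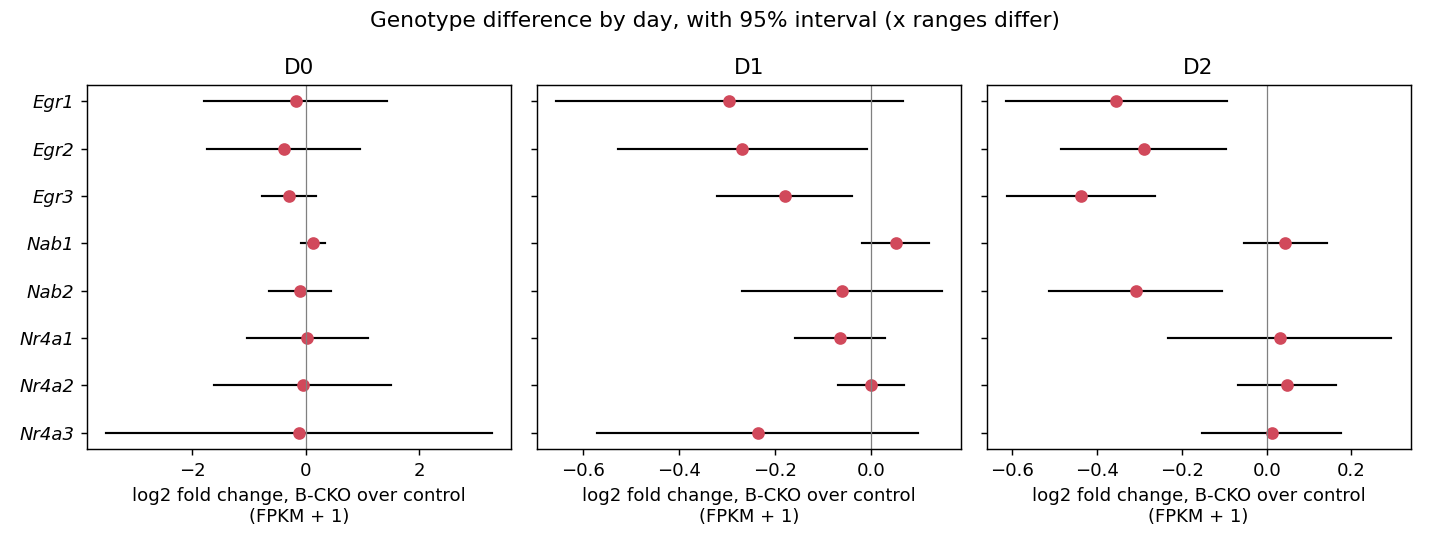
log2 fold change (FPKM + 1) of B-CKO over control libraries for the 8 genes at D0, D1 and D2, with 95% intervals from limma (3 libraries a group, x axes with their own range). The intervals of all 8 genes reach across 0 at D0, and at D2 those of *Egr1*, *Egr2*, *Egr3* and *Nab2* lie below 0, before adjustment over all genes.

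The change from D1 to D2 differed between the genotypes by -0.26 ± 0.088 log2 units for *Egr3* (95% interval -0.45 to -0.06, limma's adjusted p = 0.61) and by -0.25 (-0.53 to 0.04) for *Nab2*. For the other 6 genes the difference lay between -0.06 and 0.25. Of the 8 genes 0 passed, 1 had an unadjusted p under 0.05, where 0% of all genes passed and 7.31% had such a p. Among the genes around the families, 1 of 54 was called between genotypes at D1, against 0.0993% of all genes: *Dusp2*, which encodes a phosphatase of ERK kinases, was lower in B-CKO (log2 fold change -0.26 ± 0.026, adjusted p = 0.0389), at 39.31 to 40.66 FPKM against 47.41 to 49.17 FPKM in controls. It lost this call with the block (adjusted p = 0.126), in the single fit of all 18 libraries and without any 1 library (0.0951 to 0.202) or number (0.313 to 0.395), and kept it in the 5 other settings (0.00591 to 0.0413), with log2 fold changes from -0.29 to -0.24 throughout. None of the ERK and SRF, calcineurin or partner genes was called on that day. An unadjusted p under 0.05 was found at D1 for 9 of 21 other immediate early genes and 3 of 15 ERK and SRF genes. It was found for 4 of 12 calcineurin genes and 0 of 6 partners, against 16.3% of all genes. In the same order of lists, 8, 4, 6 and 0 genes lay wholly below the controls at D1, against 11.7% of all genes. Wholly above lay 1, 1, 0 and 0, against 8.43%. At D2 the counts were 3, 3, 3 and 1 below, against 6.24%, and 3, 0, 2 and 0 above, against 4.89%.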

How the data were processed

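RNA of splenic B cells, enriched with a bead kit and sorted, was measured in 18 libraries. The authors mapped reads to mm10 with bowtie2, estimated abundances with Cufflinks and RSEM, and deposited FPKM with 2 decimals for 16545 genes, scaled by them for transcript length and mapped fragments. Per the labels BWA and DESeq2 were also used, on an MGI2000 instrument, while the methods name a HiSeq or Novaseq; versions are not given in the sources used here. No counts were used, so depth, and the error it sets, is unknown. Gene IDs were matched to RefSeq symbols (16512 matched, 33 not).

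From these values log2(FPKM + 1) was tested with limma 3.58.1 (R 4.3.3; lmFit, eBayes with a trend), and DESeq2, the test in the methods, was not used since it needs counts. Each comparison was fitted on its own libraries, genes at 0 in all of them were left out, and p-values were adjusted by Benjamini-Hochberg over all genes tested, with 0.05 as the threshold. Comparisons were the genotypes on each day, D1 with D0 and D2 with D1 in each genotype, and the interaction terms. Some of the fits were tested on simulated data. These were drawn in all groups with the SD of the control D1 libraries, so the wider spread at D0 was not covered.

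The genes and lists were chosen with earlier results of these data known. Named genes are all 8 members, *Zbtb24*, up to 3 genes of each list with the largest called change in the control D1 to D0 and the D1 genotype comparisons, and the 5 genes most like *Egr1*, *Nr4a1* and *Nab2*; genes named outside this rule (single marker genes, *Ier3*, those ordered by number and the likeness of *Nr4a3*) were chosen after their values were seen.

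Deviations from the group means of same-numbered control and B-CKO libraries correlated across genes at 0.854, 0.468 and 0.789 at D0, with a mean of -0.342 for other numbers, so the numbers pair the D0 libraries by the data alone. At D1 the values were 0.103, 0.2 and 0.091, with a mean of -0.0657 for other numbers. At D2 they were -0.0372, 0.216 and 0.23, with a mean of -0.068. The numbers thus paired the libraries of the 2 genotypes far more weakly at D1 and D2 than at D0, and number 1 did not pair at D2. Within a genotype the labels carry the same numbers over the 3 days, which with 1 mouse per replicate gives 6 mice. Between D1 and D2, same-numbered libraries correlated at 0.126, 0.183 and 0.117 in B-CKO and at -0.0677, 0.147 and 0.0777 in control. The main fits between days did not pair libraries by number, whereas the replicate block did. Replicate pairs of a group correlated at 0.986 to 0.999.

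Alternatives were a pseudocount of 0.1, a filter at 1 FPKM on average, TPM rescaling, median ratio scaling, a replicate block, a single fit of 18 libraries, weights by day and leaving out libraries; leaving out a whole number, and block and filter together, were added after the data were seen. Promoters are from RefSeq (GRCm38.p6) and exons from GENCODE vM21. Figures were drawn with matplotlib 3.10.9 (pandas 2.3.3, numpy 2.4.6, Python 3.11.15). Some marker genes are not reported here: sums and counts of B cell markers and sums of erythroid and platelet markers are over 6 genes each.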

Additional observations from a re-analysis of the deposited data

How the results depend on the processing

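The 6 calls of EGR and NR4A genes and *Nab2* from D0 to D1 kept their direction and side of the threshold under all alternatives in both genotypes, and the blocked fit changed no call of the 8 genes other than that of *Nr4a3* from D1 to D2 in B-CKO libraries (-0.38, adjusted p = 0.0552). Genotype counts over all genes depended on the fit: 0 at D0 became 2 with a mean of at least 1 FPKM, 23 in the single fit and 22 with block and filter; 15 at D1 became 46 with a pseudocount of 0.1, 388 with the filter, 5 with the replicate block and 704 with both; 7 at D2 became 29, 11 in the single fit, 3 with the replicate block and 116 with both. At D2 the split of 1 higher and 6 lower became 0 and 5 after median ratio scaling. Of the 8 genes, 1 was called at D1 with block and filter, 1 at D2 with the filter and 1 with both; from D1 to D2 the single fit called 3 in controls (of all genes 4743 of 15178) and 2 in B-CKO (5388 of 15253); block and filter gave 2 genes over all for that interaction. Leaving out libraries gave 0 to 1 genes at D0, 0 to 8 at D1, 0 to 6 at D2, 0 to 2 for the first and 0 to 3 for the second interaction. Directions turned only for differences that passed no test. After TPM rescaling *Nr4a2* at D1 was -0.00131 and *Nab1* from D0 to D1 in B-CKO -0.0602, and after median ratio scaling *Egr1* from D1 to D2 in controls was 0.016. Without single libraries or numbers, the D0 genotype difference ranged from -0.79 to 0.49 for *Egr1*, -0.94 to 0.13 for *Egr2*, -0.27 to 0.11 for *Nab2*, -0.24 to 0.49 for *Nr4a1*, -0.60 to 0.54 for *Nr4a2* and -1.33 to 1.06 for *Nr4a3*; at D1 from -0.15 to 0.013 for *Nab2* and -0.026 to 0.039 for *Nr4a2*; at D2 from -0.056 to 0.20 for *Nr4a1* and -0.072 to 0.062 for *Nr4a3*. From D1 to D2 it ranged from -0.14 to 0.12 for *Egr1* in controls, and in B-CKO from -0.14 to 0.074 for *Egr1*, -0.090 to 0.067 for *Nab2* and -0.072 to 0.021 for *Nr4a2*. With 3 libraries a group and unknown depth, low genes such as *Nr4a2* after D0 are measured coarsely.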
